A study of Mus musculus with 4 samples.

Results

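The genes that copy DNA and divide the cell were compared between mouse epidermis labelled IL-36Ra-cKO and mouse epidermis labelled IL-36Rafl/fl. The set was a list of 54 gene symbols, of which 21 act in DNA replication, 26 in mitosis and 7 as G1 cyclins or transcriptional regulators. All 54 were found by symbol among the 17958 genes of the deposited table, and all 54 were among the 14459 genes that passed the expression filter. RNA came from 4 libraries, 2 per group. The sample names call the first group cKO and its genotype field calls it a knockdown of IL-36Ra, the secreted antagonist of the IL-36 receptor. The second group carries floxed alleles and is called WT in the genotype field. Both groups were untreated and carry the same tissue label, epidermal keratinocytes. The labels name neither the Cre driver, the age, the sex nor the number of mice, and it is not stated whether replicates are separate animals, so the p-values cover the spread among these 4 libraries, which could be purely technical.

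Cells that will divide first load the MCM helicase at replication origins, then copy their DNA in S phase, and then condense and separate the chromosomes in mitosis. Transcription runs in successive waves. E2F factors switch on the replication genes late in G1, and the MuvB complex, acting with B-Myb (Mybl2) and FoxM1, switches on the mitosis genes in G2. In skin the dividing cells are mainly basal keratinocytes and the matrix cells at the base of growing hair follicles.

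Most of the 54 genes were read at a lower level in the libraries labelled cKO, and the size of the difference varied by gene within each role. Of the 54, 50 had a negative log2 fold change (always cKO over fl/fl), against 50.0% of all genes tested, and the median was -0.56, against 0.0 for all genes tested. In 46 of the 54 both libraries labelled cKO lay below both labelled fl/fl, which was the case for 32.9% of all genes tested, and in 0 both lay above, against 34.8% of all genes tested. At an unadjusted p under 0.05 in edgeR's quasi-likelihood test, 29 of the 54 were lower (15.6% of all genes tested) and 0 were higher (16.5% of all genes tested). None of the 54 passed at an adjusted p under 0.05 over all genes tested, where 0.0277% of genes passed, and the smallest adjusted p among the 54 was 0.0669. DESeq2 on the same counts called 18 of the 54 lower at that threshold (9.88% of genes with an adjusted p): 13 mitosis genes, 4 replication genes and Ccne2. limma-voom called none of the 54.

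The count of 29 depended on single libraries, and in most of these fits the share of all genes lower was smaller too. With cKO replicate 1 left out it was 26 (12.9% of all genes tested), and with cKO replicate 2 left out it was 19 (10.7%). With fl/fl replicate 1 left out it was 18 (7.85%), and with fl/fl replicate 2 left out it was 17 (15.6%). It was 16 (13.8%) when libraries were scaled on 12 basal keratinocyte genes alone.

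**Figure D1:**
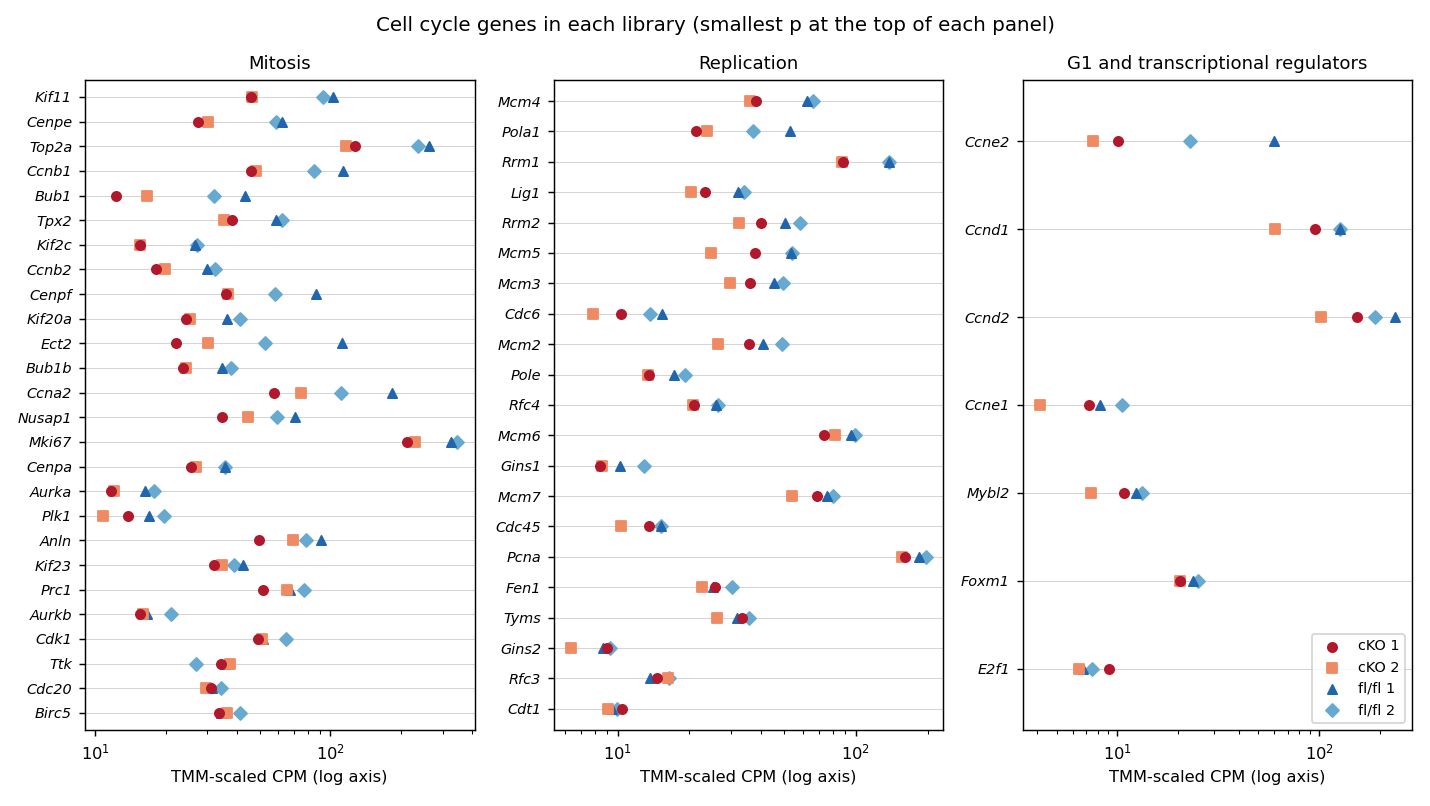
Counts scaled to library size (CPM, with TMM factors, log axis) of the 54 genes in each of the 4 libraries, in 3 panels by role, with the gene of the smallest p at the top of each panel and 1 point per library. The cKO points lie left of both fl/fl points for 24 of 26 mitosis genes, 16 of 21 replication genes and 6 of 7 regulators. This was the case for 32.9% of all genes tested.

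Total estimated counts ran from 14622791 to 16490602 per library, and the 54 genes had between 63 and 5918 estimated counts each in any library. The counts of Ccna2, Ccnb1, Kif20a, Tyms, Ccnd1 and Ccne2 were not whole in any of the 4 libraries, as happens where reads are shared with another gene, so their values are less certain. The targeted gene, listed under its older symbol Il1f5, stood at 221.6 and 165.5 CPM in the libraries labelled cKO and 254.3 and 203 CPM in those labelled fl/fl (log2 fold change -0.24 ± 0.24 SE, edgeR adjusted p = 0.509), so it does not check the labels. The summed level of 4 Y-linked genes was 299.5 and 354 CPM in the libraries labelled cKO and 3.736 and 4.887 CPM in those labelled fl/fl, so an apparent difference in sex and the genotype label cannot be told apart. In whole tissue, fewer dividing cells and less RNA of these genes per cell cannot be told apart either.

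Promoter letters were read for the sites of the regulators named above. RefSeq promoter windows of build GRCm38.p6, from 250 bases before to 50 bases after the start site, were matched by symbol for 42 of the 54 genes, as 48 windows, some of which overlap because they belong to the same gene. The CHR, the element that MuvB binds, was searched as TTTGAA or TTCGAA, the CCAAT box of the factor NF-Y as CCAAT, and the E2F site as TTTGGCGC, TTTCCCGC, TTTCGCGC or TTTGCCGC, each on both strands. A CHR match was found in 20 of 24 mitosis windows (83.3%) and 5 of 21 replication windows (23.8%), against 19.2% of all 32851 windows. An E2F match was found in 1 of 24 mitosis windows (4.17%) and 9 of 21 replication windows (42.9%), against 2.26% of all windows. CCAAT boxes were found in 20 of 24 mitosis windows (83.3%) and 12 of 21 replication windows (57.1%), against 37.4% of all windows. A match is a description of the letters and not a measured binding site.

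**Figure D2:**
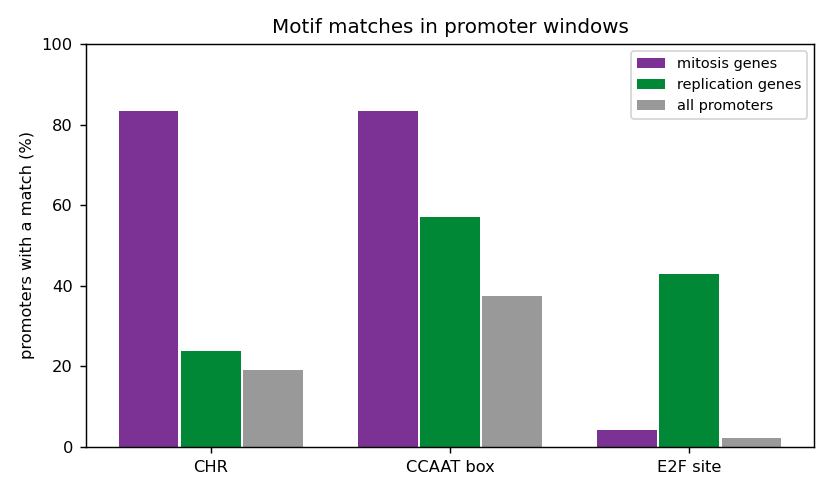
Percent of promoter windows with at least 1 match to the CHR, the CCAAT box or the E2F site, for 24 windows of mitosis genes, 21 windows of replication genes and all 32851 windows. CHR matches were found in 83.3% of mitosis windows and 23.8% of replication windows, and E2F matches in 4.17% and 42.9%.

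The 160 bases before the start site are given for 4 mitosis and 4 replication genes, chosen after their values were seen. The mitosis genes pair large with small differences. The replication genes do not: Pola1, Mcm5 and Cdc6 had log2 fold changes of -0.99, -0.78 and -0.67, and Mcm6 had -0.32. Each reads 5′ to 3′ on the gene's strand and ends at the base before the start, with matches to the motifs in capitals. The mitosis genes are Kif11 (chr19:37376222-37376381, plus strand), Top2a (chr11:99024190-99024349, minus strand), Cdk1 (chr10:69352913-69353072, minus strand) and Cdc20 (chr4:118437344-118437503, minus strand). In all 4 a CHR lies within the last 23 bases and a CCAAT box upstream of it, and Cdk1 also holds an E2F match. This layout is not general among the mitosis windows. The CHR matches of Bub1, Cenpf and Plk1, for example, lie after the start site, and the windows of Ccnb1 and Cenpe hold no CHR match.
Kif11: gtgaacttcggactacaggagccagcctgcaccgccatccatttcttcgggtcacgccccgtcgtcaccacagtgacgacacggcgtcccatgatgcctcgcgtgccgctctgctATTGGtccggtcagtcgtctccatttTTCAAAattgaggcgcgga
Top2a: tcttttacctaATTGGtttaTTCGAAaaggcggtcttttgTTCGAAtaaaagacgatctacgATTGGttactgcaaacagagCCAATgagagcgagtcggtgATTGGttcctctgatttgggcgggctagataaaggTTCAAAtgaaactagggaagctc
Cdk1: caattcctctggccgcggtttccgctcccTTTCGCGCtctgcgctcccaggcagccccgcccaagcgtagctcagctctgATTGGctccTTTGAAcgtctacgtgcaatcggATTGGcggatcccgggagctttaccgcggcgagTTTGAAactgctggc
Cdc20: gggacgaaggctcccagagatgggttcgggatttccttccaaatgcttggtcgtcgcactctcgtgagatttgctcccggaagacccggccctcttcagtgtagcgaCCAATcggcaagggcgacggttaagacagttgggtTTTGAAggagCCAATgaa
The replication genes are Pola1 (chrX:93632156-93632315, minus strand), Mcm5 (chr8:75109349-75109508, plus strand), Mcm6 (chr1:128359706-128359865, minus strand) and Cdc6 (chr11:98907991-98908150, plus strand). All 4 hold E2F matches, against 9 of 21 replication windows, and none holds a CHR match in the stretch shown. In Mcm5 and Mcm6 a pair of E2F matches overlaps and reads as 1 longer run of capitals.
Pola1: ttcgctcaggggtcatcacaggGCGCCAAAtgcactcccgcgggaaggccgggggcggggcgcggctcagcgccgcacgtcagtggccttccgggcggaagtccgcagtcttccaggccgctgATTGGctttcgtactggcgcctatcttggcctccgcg
Mcm5: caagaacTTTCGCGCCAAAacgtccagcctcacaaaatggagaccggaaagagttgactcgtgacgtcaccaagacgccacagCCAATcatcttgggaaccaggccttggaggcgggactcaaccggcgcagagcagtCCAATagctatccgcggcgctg
Mcm6: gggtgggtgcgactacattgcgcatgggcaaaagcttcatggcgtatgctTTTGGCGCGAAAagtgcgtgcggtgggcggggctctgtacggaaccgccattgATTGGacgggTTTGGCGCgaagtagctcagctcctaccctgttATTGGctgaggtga
Cdc6: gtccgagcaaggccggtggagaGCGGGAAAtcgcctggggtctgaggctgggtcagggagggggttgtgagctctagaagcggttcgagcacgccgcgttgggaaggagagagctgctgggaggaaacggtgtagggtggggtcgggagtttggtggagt

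Among mitosis genes, 18 of 26 were lower at an unadjusted p under 0.05 and 0 higher, against 15.6% and 16.5% of all genes tested. The median log2 fold change was -0.63, a fold of 0.648. The spindle motors and microtubule proteins all lay lower in both libraries labelled cKO, which was the case for 32.9% of all genes tested. Kif11, the motor that pushes the spindle poles apart, had 46.05 and 46.25 CPM in the libraries labelled cKO, against 102.3 and 93.44 CPM in those labelled fl/fl. Its log2 fold change of -1.08 ± 0.15 (SE) had the smallest p of the 54 (edgeR adjusted p = 0.0669). Tpx2, which activates Aurora A on the spindle, had 38.16 and 35.16 CPM in the libraries labelled cKO, against 58.76 and 61.96 CPM in those labelled fl/fl. Kif2c, a motor that takes microtubules apart at the kinetochore, had 15.58 and 15.44 CPM in the libraries labelled cKO, against 26.63 and 27.17 CPM in those labelled fl/fl. In these 3 genes the libraries of a group lay close together and the groups far apart. Nusap1 and Kif20a gave -0.71 ± 0.20 and -0.65 ± 0.16 (SE). The midzone genes Kif23 and Prc1, whose products bundle microtubules between the separating chromosomes, gave -0.29 ± 0.15 and -0.31 ± 0.19 and missed an unadjusted p under 0.05.

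All 3 kinetochore genes were lower at an unadjusted p under 0.05 (15.6% of all genes tested). Cenpe, a motor that carries chromosomes to the spindle equator, had 27.28 and 30.22 CPM in the libraries labelled cKO, against 62.09 and 58.71 CPM in those labelled fl/fl, a log2 fold change of -1.07 ± 0.15 (SE, edgeR adjusted p = 0.0669). Cenpf, a large protein of the outer kinetochore, had 35.92 and 36.55 CPM in the libraries labelled cKO, against 86.88 and 58.36 CPM in those labelled fl/fl. Cenpa, the histone H3 variant that marks the centromere, had a smaller difference (-0.44 ± 0.15 SE). No library of the group labelled cKO reached the libraries labelled fl/fl in any of the 3, as in 32.9% of all genes tested.

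Top2a, the topoisomerase that untangles sister chromosomes, had 127.5 and 116.1 CPM in the libraries labelled cKO, against 261.7 and 235.3 CPM in those labelled fl/fl (log2 fold change -1.03 ± 0.18 SE, edgeR adjusted p = 0.074). Mki67, the proliferation antigen Ki-67 that coats mitotic chromosomes, had 212.2 and 228.2 CPM in the libraries labelled cKO, against 324.7 and 344.3 CPM in those labelled fl/fl (-0.60 ± 0.18 SE). Both were lower in each library labelled cKO, Top2a by the larger step.

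Of 6 genes for cyclins and mitotic kinases, 5 were lower at an unadjusted p under 0.05 (15.6% of all genes tested), and Cdk1 was not. Ccnb1, cyclin B1, had 45.78 and 48.36 CPM in the libraries labelled cKO, against 113.2 and 85.12 CPM in those labelled fl/fl (log2 fold change -1.07 ± 0.20 SE). Ccnb2, cyclin B2, had 18.09 and 19.86 CPM in the libraries labelled cKO, against 30.02 and 32.41 CPM in those labelled fl/fl. Ccna2, cyclin A2, had 57.61 and 75.34 CPM in the libraries labelled cKO, against 183.3 and 111.3 CPM in those labelled fl/fl, which differed between themselves as well. Cdk1, the kinase that all of them activate, had 49.45 and 51.26 CPM in the libraries labelled cKO, against 51.76 and 64.7 CPM in those labelled fl/fl, and its log2 fold change was -0.21 ± 0.17 (SE, edgeR adjusted p = 0.416). The groups did not overlap for Cdk1, but cKO replicate 2 and fl/fl replicate 1 were nearly level. The kinase genes Aurka and Plk1, for Aurora A and Polo-like kinase, gave -0.53 ± 0.19 and -0.58 ± 0.22.

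Of 4 checkpoint and anaphase genes, 2 were lower at an unadjusted p under 0.05 (15.6% of all genes tested). Bub1, a kinase that recruits the checkpoint to unattached kinetochores, had 12.31 and 16.63 CPM in the libraries labelled cKO, against 43.2 and 32 CPM in those labelled fl/fl (log2 fold change -1.38 ± 0.25 SE), and its relative Bub1b gave -0.59 ± 0.16. Ttk, the Mps1 kinase that starts the checkpoint signal, was the 1 mitosis gene with a positive value. It had 34.15 and 37.61 CPM in the libraries labelled cKO, against 35.73 and 26.76 CPM in those labelled fl/fl (0.20 ± 0.20 SE, edgeR adjusted p = 0.507), and the value was -0.014 without fl/fl replicate 2. The groups overlapped. Cdc20, the activator of the ubiquitin ligase that starts anaphase, had 31.15 and 29.56 CPM in the libraries labelled cKO, against 31.45 and 34.27 CPM in those labelled fl/fl (-0.11 ± 0.15 SE).

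Of 4 genes of the chromosomal passenger complex and cytokinesis, 1 was lower at an unadjusted p under 0.05 (15.6% of all genes tested). Birc5, survivin, a subunit of that complex, which corrects faulty attachments, had the largest p of the mitosis genes, with 33.53 and 36.22 CPM in the libraries labelled cKO, against 34.24 and 41.08 CPM in those labelled fl/fl (log2 fold change -0.11 ± 0.17 SE). Aurkb, its kinase, gave -0.26 ± 0.20 (SE). Its subunit genes outside the 54, Cdca8 and Incenp, gave -0.48 ± 0.21 and 0.0 ± 0.15, and both missed an unadjusted p under 0.05. Ect2, the exchange factor that activates RhoA at the cleavage furrow, had 22.04 and 30.15 CPM in the libraries labelled cKO, against 112.4 and 52.77 CPM in those labelled fl/fl (-1.66 ± 0.41 SE). The Ect2 groups did not overlap, but the libraries labelled fl/fl stood far apart. Anln, anillin, which scaffolds the contractile ring, gave -0.51 ± 0.22. Cdc20 and Cdk1, with small differences, hold a CHR and a CCAAT box in the stretches shown above, as do Kif11 and Top2a, with large ones. These genes were picked by their values, and whether the sites go with the size of the difference was not tested.

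Of the mitosis genes lower at an unadjusted p under 0.05, Ccna2 and Ect2 moved by over 1.5 times when fl/fl replicate 1 was left out, to log2 fold changes of -0.75 and -1.02.

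Among replication genes, 8 of 21 were lower at an unadjusted p under 0.05 and 0 higher, against 15.6% and 16.5% of all genes tested. The median log2 fold change was -0.43, a fold of 0.741. The 6 subunits of the MCM2-7 helicase, which unwinds DNA at the fork, all lay below the libraries labelled fl/fl in both libraries labelled cKO. This was the case for 32.9% of all genes tested. The log2 fold changes of the 6 ran from -0.32 to -0.80. Mcm4 had the smallest p of the replication genes, with 38.02 and 35.89 CPM in the libraries labelled cKO, against 62.15 and 66.21 CPM in those labelled fl/fl (-0.80 ± 0.14 SE, edgeR adjusted p = 0.074). Mcm5 had 37.68 and 24.54 CPM in the libraries labelled cKO, against 53.19 and 53.99 CPM in those labelled fl/fl (-0.78 ± 0.24 SE), with values of -1.13 without cKO replicate 1 and -0.51 without cKO replicate 2. Mcm3 gave -0.54 ± 0.17, and Mcm2, Mcm6 and Mcm7 missed an unadjusted p under 0.05. Per length, in TPM, the 6 subunits were not level with each other in either group: Mcm7 averaged 33.37 ± 4.48 TPM in the libraries labelled cKO and 48.27 ± 0.778 TPM in those labelled fl/fl (SD, n = 2 each), and Mcm2 averaged 11.80 ± 2.22 and 19.29 ± 1.89 TPM in the same order.

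Of the loading factors, Cdc6 was lower at an unadjusted p under 0.05 and Cdt1 was not. Cdc6 helps load the MCM ring onto DNA. It had 10.34 and 7.917 CPM in the libraries labelled cKO, against 15.28 and 13.73 CPM in those labelled fl/fl. Its log2 fold change was -0.67 ± 0.23 (SE). Cdt1, its partner in loading, had 10.41 and 9.105 CPM in the libraries labelled cKO, against 9.442 and 9.949 CPM in those labelled fl/fl, and its value of 0.01 ± 0.22 (SE) had the largest p of the replication genes (edgeR adjusted p = 0.981). The Cdt1 groups overlapped, and its sign turned with the scaling used. Cdc45 and the GINS genes Gins1 and Gins2, which turn the loaded ring into an active helicase, gave -0.35 ± 0.22, -0.44 ± 0.23 and -0.22 ± 0.27.

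At the fork, Pola1, the catalytic subunit of the polymerase that lays primers, had 21.36 and 23.69 CPM in the libraries labelled cKO, against 52.64 and 37.12 CPM in those labelled fl/fl (log2 fold change -0.99 ± 0.22 SE, edgeR adjusted p = 0.0841). Lig1, the ligase that joins Okazaki fragments, had 23.33 and 20.39 CPM in the libraries labelled cKO, against 31.93 and 33.75 CPM in those labelled fl/fl (-0.59 ± 0.17 SE). Pcna, the sliding clamp, was the most abundant of the 54 per length at 187.6 ± 4.11 TPM in the libraries labelled cKO and 262.7 ± 3.84 TPM in those labelled fl/fl (SD, n = 2 each). On counts it gave -0.27 ± 0.17 (SE). Fen1, the flap nuclease, and Pole, the leading strand polymerase, gave -0.20 ± 0.19 and -0.43 ± 0.18. Rfc3 and Rfc4 belong to the same clamp loader: Rfc3 had 14.62 and 16.23 CPM in the libraries labelled cKO, against 13.65 and 16.47 CPM in those labelled fl/fl, a value of 0.03 ± 0.20 whose sign turned on TPM and without cKO replicate 2, and Rfc4 gave -0.32 ± 0.16.

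Of 3 nucleotide supply genes, 2 were lower at an unadjusted p under 0.05 (15.6% of all genes tested). Rrm1, the large subunit of ribonucleotide reductase, had 88.16 and 87.22 CPM in the libraries labelled cKO, against 137.3 and 137.9 CPM in those labelled fl/fl (log2 fold change -0.65 ± 0.16 SE, edgeR adjusted p = 0.09). Rrm2, its small subunit, had 39.79 and 32.46 CPM in the libraries labelled cKO, against 50.47 and 58.07 CPM in those labelled fl/fl (-0.59 ± 0.18 SE). Tyms, thymidylate synthase, had 33.4 and 26.19 CPM in the libraries labelled cKO, against 31.72 and 35.49 CPM in those labelled fl/fl, and its groups overlapped.

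Among the 7 regulators, 3 of the 4 cyclins and 0 of the 3 transcription factors were lower at an unadjusted p under 0.05. The share over all genes tested was 15.6%, and the difference between the cyclins and the transcription factors was not tested. Ccne2, cyclin E2, which drives entry into S phase with Cdk2, had 10.07 and 7.587 CPM in the libraries labelled cKO, against 59.91 and 23.04 CPM in those labelled fl/fl. Its log2 fold change of -2.23 ± 0.51 (SE, edgeR adjusted p = 0.0844) was the most negative of the 54, and it was -1.39 without fl/fl replicate 1. Ccne1, cyclin E1, had 7.21 and 4.156 CPM in the libraries labelled cKO, against 8.219 and 10.53 CPM in those labelled fl/fl (-0.72 ± 0.36 SE) and missed an unadjusted p under 0.05. The groups did not overlap for either E cyclin.

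The D cyclins couple growth signals to the cell cycle. Ccnd1 had 95.09 and 60.7 CPM in the libraries labelled cKO, against 127.4 and 127.2 CPM in those labelled fl/fl (log2 fold change -0.71 ± 0.26 SE). Ccnd2 had 154.2 and 101.8 CPM in the libraries labelled cKO, against 237.5 and 189.4 CPM in those labelled fl/fl (-0.74 ± 0.28 SE). In both, cKO replicate 2 was the lowest library, and without it the values were -0.42 for Ccnd1 and -0.47 for Ccnd2, against -1.07 for each without cKO replicate 1. Ccnd3, counted below among the further G1 genes and regulators, went the other way and was higher at an unadjusted p under 0.05. It had 46.53 and 44.2 CPM in the libraries labelled cKO, against 29.41 and 33.51 CPM in those labelled fl/fl. Its log2 fold change was 0.53 ± 0.15 (SE, edgeR adjusted p = 0.109), and its counts were not whole in any library. Foxm1 and Mybl2, whose products act on the mitosis genes, gave -0.26 ± 0.16 and -0.49 ± 0.27. E2f1, which acts on the replication genes, had 9.047 and 6.466 CPM in the libraries labelled cKO, against 6.793 and 7.505 CPM in those labelled fl/fl (0.12 ± 0.28 SE, edgeR adjusted p = 0.782), with overlapping groups and a value of -0.15 without cKO replicate 1.

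Mitosis genes had the larger median difference, and whether the libraries separated on the contrast between the roles depended on the measure, none of which was tested. The mean log2 CPM of mitosis genes minus that of replication genes, which hardly depends on the scaling of a library, was 0.26 and 0.56 in the libraries labelled cKO and 0.72 and 0.55 in those labelled fl/fl, so the groups overlapped. The difference between the medians of log2 fold change was -0.19 over all 4 libraries and -0.06 without cKO replicate 1. As medians of log2 CPM minus the fl/fl mean, mitosis genes lay at -0.67 and -0.59 in cKO replicates 1 and 2 and at -0.01 and 0.01 in fl/fl replicates 1 and 2. Replication genes lay at -0.40 and -0.53 in cKO replicates 1 and 2 and at -0.05 and 0.05 in fl/fl replicates 1 and 2. The mitosis median minus the replication median was -0.27 and -0.06 in the libraries labelled cKO and 0.04 and -0.04 in those labelled fl/fl. On this measure the groups did not overlap, though cKO replicate 2 and fl/fl replicate 2 were nearly level. Centring each gene on its fl/fl mean makes the fl/fl values mirror images by construction, so the groups are not compared evenly here. Replication genes leaned to a lower level in cKO replicate 2 (17 of 21 below replicate 1) and mitosis genes to a higher level there (21 of 26 above replicate 1). Of all 14459 genes tested, 7210 lay below and 7076 above. Between the libraries labelled fl/fl, 19 of 21 replication genes and 13 of 26 mitosis genes were lower in replicate 1, against 8233 of all 14459. Summed over each role in TPM, mitosis genes came to 413.1 and 464.4 in the libraries labelled cKO and 814.5 and 716.7 in those labelled fl/fl. Replication genes came to 487.2 and 475.2 TPM in the libraries labelled cKO and 706.5 and 722.5 TPM in those labelled fl/fl. The ratio of the mitosis sum to the replication sum was 0.848 and 0.977 in the libraries labelled cKO and 1.153 and 0.992 in those labelled fl/fl. Again the groups did not overlap and the replicates numbered 2 were close. Pcna alone gave 184.7 and 190.5 TPM of the replication sums in the libraries labelled cKO, and 260.0 and 265.4 TPM in those labelled fl/fl. With Pcna taken out of the sums, cKO replicate 2 lies above fl/fl replicate 2, so this separation leans on that gene.

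**Figure D3:**
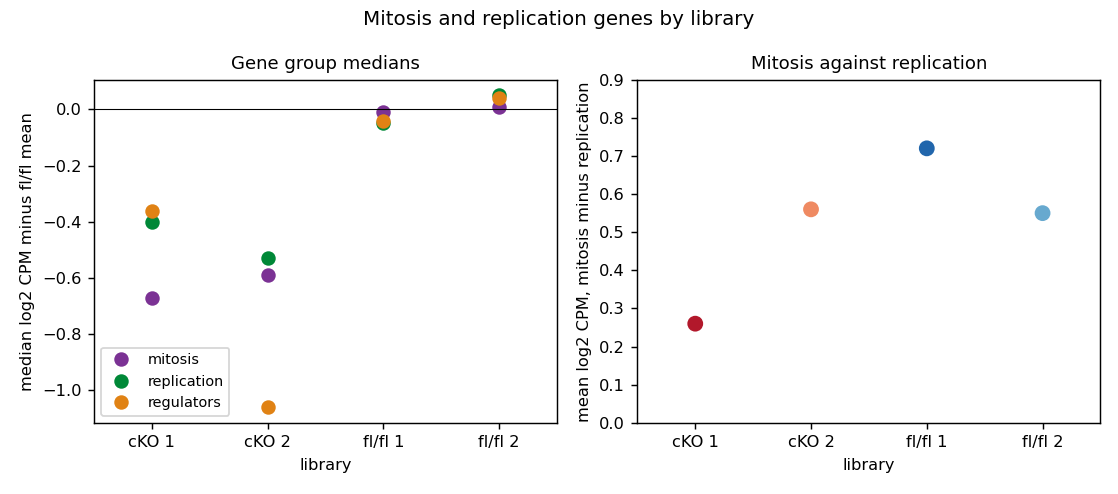
Left, median over the genes of each role of log2 CPM minus the fl/fl mean, by library. Right, mean log2 CPM of mitosis genes minus that of replication genes, by library: cKO replicate 1 is lowest at 0.26, and cKO replicate 2 (0.56) is level with fl/fl replicate 2 (0.55).

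Further genes of the same pathways were counted from lists. Of 58 further mitosis genes, 31 were lower and 1 higher at an unadjusted p under 0.05, against 15.6% and 16.5% of all genes tested, with a median log2 fold change of -0.60. Ncapg, a condensin subunit, and Pbk, a mitotic kinase, gave -1.44 ± 0.26 and -0.87 ± 0.16 (SE). The higher one was Pttg1, securin, which restrains the cohesin-cutting enzyme until anaphase, with 49.04 and 53.11 CPM in the libraries labelled cKO, against 22.35 and 26.01 CPM in those labelled fl/fl (1.08 ± 0.16 SE, edgeR adjusted p = 0.0678). Of 42 further replication genes, 14 were lower and 0 higher, with a median of -0.35, among them Dbf4, the activator of the kinase that fires origins (-0.86 ± 0.17), and the fork protection gene Tipin (-0.75 ± 0.17).

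Of 29 further G1 genes and regulators, 10 were lower and 4 higher, against 15.6% and 16.5% of all genes tested. The share higher was thus no larger than among all genes, and the median log2 fold change was -0.32. The repressive E2F genes E2f7 and E2f8 gave -1.58 ± 0.23 and -1.0 ± 0.24 (SE), and Myc and the anaphase ligase activator Fzr1 gave 0.76 ± 0.17 and 0.62 ± 0.17. At that threshold 3 of 7 CDK inhibitor genes, which brake the cell cycle, were higher and none lower, against 16.5% and 15.6% of all genes tested. Cdkn1a, p21, had 427.7 and 295.1 CPM in the libraries labelled cKO, against 207.6 and 224.7 CPM in those labelled fl/fl (0.74 ± 0.25 SE, and 0.45 without cKO replicate 1), and Cdkn2d and Cdkn2b gave 0.79 ± 0.16 and 0.65 ± 0.18. Cdkn1b, p27, had 54.35 and 77.06 CPM in the libraries labelled cKO, against 192.7 and 74.94 CPM in those labelled fl/fl (-1.03 ± 0.49 SE), with overlapping groups. None of these genes passed over all genes tested.

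**Figure D4:**
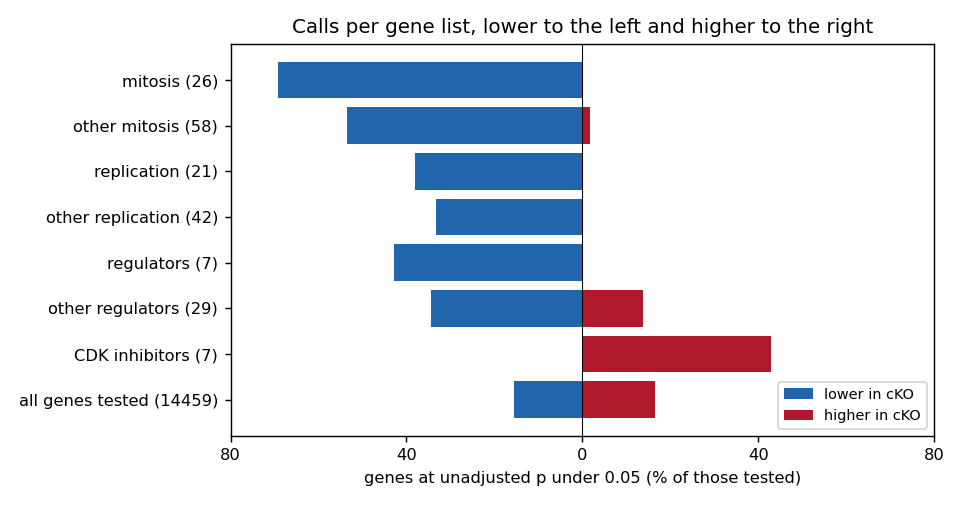
Percent of tested genes of each list at an unadjusted p under 0.05 in edgeR, lower in cKO to the left and higher to the right, with the number of tested genes in brackets. Mitosis genes had 69.2% lower and replication genes 38.1%, against 15.6% of all 14459 genes tested, of which 16.5% were higher.

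Gene length moved with the genotype label across the whole table, and the 54 genes lay below that trend. Sorted into sixths by effective length, genes had a median log2 fold change of 0.35 in the shortest sixth (up to 1224 bases) and -0.35 in the longest (from 4933 bases). The 54 genes had medians of -0.27 in the shortest sixth (7 genes) and -0.87 in the longest (6 genes), and their median length was 2832 bases, against 2630 over all genes tested. With the length trend of each library removed, 52 of the 54 were negative, and the medians were -0.66 for mitosis and -0.52 for replication genes. In that fit 18 mitosis genes and 10 replication genes were lower at an unadjusted p under 0.05, against 14.9% of all genes tested. Of the genes named above as higher, Pttg1, Cdkn2d and Cdkn2b lie in the shortest sixth (550, 982 and 1107 bases). Ccnd3, Cdkn1a, Fzr1 and Myc are longer (1540, 1628, 1968 and 2112 bases). The part of length in their higher values was not tested.

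**Figure D5:**
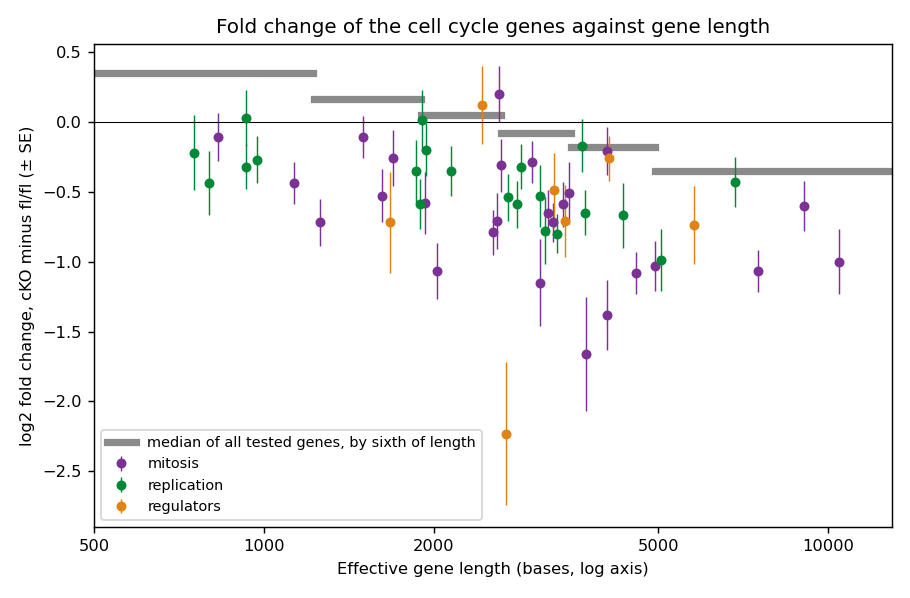
Log2 fold change (cKO minus fl/fl, ± SE) of the 54 genes against effective gene length in bases (log axis, from 500), with grey bars for the median of all tested genes in each sixth of length. The bars step from 0.35 to -0.35 with length, and the median of the 54 genes lies below the bar in each sixth.

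The make-up of the tissue also differed between libraries. Among 12 basal keratinocyte markers 3 were lower and 2 higher by the unadjusted p, against 15.6% and 16.5% of all genes tested, and the list lay at medians of 0.10 and 0.13 log2 CPM above the fl/fl mean in cKO replicates 1 and 2. The summed level of 17 hair shaft and inner root sheath genes was 6514 CPM in cKO replicate 1 and 9.698 CPM in cKO replicate 2, against 22700 and 19440 CPM in those labelled fl/fl, and 11 of the 17, Krt31 and Krt71 among them, were at 0 counts in cKO replicate 2. The 8 hair matrix genes summed to 235.6 and 64.46 CPM in the libraries labelled cKO and 392.1 and 374.9 CPM in those labelled fl/fl. Beside these sums, the medians in cKO replicates 1 and 2 were -0.67 and -0.59 for mitosis genes, -0.40 and -0.53 for replication genes and -0.36 and -1.06 for regulators, on the log2 scale relative to fl/fl. The 4 wound keratins Krt6a, Krt6b, Krt16 and Krt17 summed to 3929 and 3845 CPM in the libraries labelled cKO and 12840 and 18020 CPM in those labelled fl/fl. Skeletal muscle genes summed to 59.45 and 1572 CPM in the libraries labelled cKO and 104.3 and 126.5 CPM in those labelled fl/fl. The 7 T cell markers summed to 154 and 167.9 CPM in the libraries labelled cKO and 77.91 and 109.3 CPM in those labelled fl/fl, and the 6 melanocyte markers to 267.2 and 10.29 CPM and to 668.7 and 630.6 CPM in the same order. The part of these markers in the lower level of the cell cycle genes was not tested.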

How the data were processed

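Per the labels' protocols, tissue was lysed in Trizol, mRNA was selected on oligo(dT) beads and cDNA was sequenced as DNA nanoballs. Whether strand was kept is not given in the sources used here. Build GRCm39 and 3 tools are named, with no role given, per the submitters' processing notes: RSEM 1.3.1, DESeq2 1.4.5 and Bowtie2 2.3.4.3. The authors deposited estimated counts, TPM and FPKM per gene and library, and 12 further columns were not used. In 10 of the 54 genes the estimated count was not whole in at least 1 library, as happens where reads are shared between genes. FPKM served only to derive effective length from genes with at least 20 counts in a library.

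Libraries were grouped by their titles. After rounding, the estimated counts went into edgeR's quasi-likelihood test (edgeR 4.0.16 in R 4.3.3, beside limma 3.58.1) with all 14459 genes passing the default filter, with TMM scaling, group as the sole term and 2 residual degrees of freedom. Benjamini-Hochberg adjustment ran over all genes tested (threshold 0.05). CPM values are TMM-scaled, and log2 CPM has a prior count of 2. The fit was run on simulated data with less spread between libraries than these data (common biological coefficient of variation 0.269). That run therefore does not show how often the test errs here. The genes given by library were, per role, the 3 with the smallest p, the 1 with the largest p and any on the other side of 0, with further ones chosen after their values were seen. The members and lists were chosen with earlier results of these data known. Alternatives were DESeq2 1.42.0, limma-voom, limma on log2(TPM + 1) and log2(TPM + 0.1), other scaling, other filters, a length correction (loess span 0.3), the replicate number as a block, and each library left out in turn. Promoter sequences were used without converting coordinates between builds.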

Additional observations from a re-analysis of the deposited data

How the results depend on the processing

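The lower median of mitosis and of replication genes kept its sign in all alternatives run, and no member was higher at an unadjusted p under 0.05 in any of them. The counts of calls did not hold. Over all genes, 4 passed adjusted p with all libraries (0 lower, 4 higher), and 3 of these 4 were Y-linked genes. DESeq2 gave 2574 (1428 lower, 1146 higher), no scaling factor 1359 (725 lower, 634 higher), upper-quartile factors 388 (152 lower, 236 higher), basal keratinocyte factors 339 (149 lower, 190 higher) and an adjusted p under 0.1 gave 2201. Leaving out each library gave 0 to 887. Of the 54 genes, 18 passed with DESeq2, where 9.88% of genes with an adjusted p were lower. With no scaling factor 10 passed, against 725 of 14459 genes lower, and with upper-quartile factors 2, against 152 of 14459. With limma-voom 0 passed. At an adjusted p under 0.1, 17 were lower, and the 2201 genes at that threshold were not split by direction. The cause was not tested.

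At an unadjusted p under 0.05 the 29 lower members became 16 with basal keratinocyte factors and 17 to 26 without each library. The 8 of 21 replication genes became 16 on log2(TPM + 1) and on log2(TPM + 0.1), against 22.4% and 21.3% of all genes tested. They became 5 with no scaling factor (16.0% of all genes tested) and 2 with basal keratinocyte factors (13.8%). With basal keratinocyte factors, replication genes were thus called no more often than genes at large. The counts of replication genes and of the 18 mitosis genes fell or held when single libraries were left out. Whether libraries of the same replicate number belong together is not given in the labels, and their correlation of deviations (-0.13) cannot settle it. With the replicate block 17 members were lower, 3 of them replication genes, against 11.4% of all genes tested. Over all genes, 4 passed adjusted p in that fit. The crossed pairing, chosen after seeing the data, let 0 genes pass.

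On TPM the median of all genes was -0.16 (pseudocount 1) and -0.18 (0.1). The replication median was -0.53 and -0.57 there, -0.52 with the length trend removed and -0.54 to -0.37 without each library, against -0.43. The mitosis median was -0.75 and -0.79 on TPM, -0.56 with upper-quartile factors, -0.58 with no scaling factor and -0.67 to -0.60 without each library, against -0.63. Relative to all genes on TPM, the medians were -0.37 and -0.40 for replication and -0.59 and -0.62 for mitosis. The difference between the medians ran from -0.27 to -0.06 without each library.

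Of the 54 genes, 48 kept their sign throughout. Cdt1 turned to -0.028 (DESeq2), -0.16 and -0.18 (TPM), -0.027 (median-of-ratios factors), -0.11 (length trend removed), -0.092 with cKO replicate 1 left out and -0.033 with fl/fl replicate 1 left out. Rfc3 turned to -0.00049 (DESeq2), -0.17 and -0.18 (TPM), -0.26 (length trend removed), -0.042 with cKO replicate 2 left out and -0.098 with fl/fl replicate 1 left out (0.16 with fl/fl replicate 2 left out). E2f1 turned to -0.059 and -0.075 (TPM), and ran from -0.15 to 0.34 without each library. Over the same fits Ttk ran from -0.014 to 0.42, Birc5 from -0.24 to 0.0068 and Gins2 from -0.49 to 0.012.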
